A study of Cervus nippon with 12 samples.

Results

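The late step of chondrogenic induction was examined in reserve mesenchyme cells (RMCs) from the growing antler of the sika deer by comparing small RNA libraries made after 14 days of induction (CP_14) with libraries made after 7 days (CP_7). These were 6 of the 12 libraries of the series, 3 per group, and all 545 miRNAs listed in them were considered. Of these, 500 had at least 1 read in the 6 libraries and 246 passed the filter on low counts and were tested. RMCs are wild-type mesenchymal stem cells of the antler tip, here from male deer 3 years of age. In both groups 500000 cells per tube were cultured as a pellet in chondrogenic medium changed every 2 days, so that the groups differed in days of induction (7 or 14). Uninduced RMCs (CP_0) and antler chondrocytes (CC), 3 libraries each, are given below only as side values. The study's methods name biological replicate experiments for each tissue type, but the labels do not tie the 3 libraries of a group to separate cultures or animals, so the p-values measure the spread between these libraries, which may be technical.

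A miRNA is a short RNA that is cut from a hairpin precursor, loaded into an Argonaute protein and guides it to partly matching messenger RNAs, whose translation and stability it lowers. One precursor can give a mature miRNA from each arm (5p and 3p), and neighbouring precursors are often cut from 1 primary transcript. In cartilage the best known members are miR-140, which lies within the WWP2 gene, and miR-455, within COL27A1. The let-7 family is known for its accumulation as cells leave the progenitor state, and miR-29 for its sites in collagen transcripts.

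The CP_7 libraries held 539455 to 1032029 reads and the CP_14 libraries 2791559 to 3864900, a 4.14-fold difference of means. One read therefore stood for 0.969 to 1.85 RPM (reads per 1000000 reads on listed miRNAs) in CP_7 and for 0.259 to 0.358 RPM in CP_14. A listed miRNA with 0 reads may still have stood at up to 2.91 to 5.56 RPM in CP_7 and 0.776 to 1.07 RPM in CP_14 (3 reads, counting error only). At least 1 read was found for 351, 367 and 342 miRNAs in the CP_7 libraries and for 392, 403 and 415 in the CP_14 libraries. At the depth of the shallowest library, 539455 reads, the order turned to 333 to 342 in CP_7 against 306 to 308 in CP_14. By chi-square on reads, a measure that grows with depth, CP_14 replicate 3 stood apart from the other CP_14 libraries. It gave 252 per degree of freedom against replicate 1, where replicates 1 and 2 gave 4.92. The CP_7 libraries gave 25.6 to 66.2 among themselves. On the log scale that was tested, the CP_14 libraries correlated with each other at 0.990 to 0.994 and the CP_7 libraries at 0.952 to 0.977. There the CP_7 libraries were the more spread. Cartilage markers were present in every library, since miR-140, miR-455-3p and miR-455-5p together stood at 7505 to 7875 normalized RPM in CP_7 and 12827 to 14039 in CP_14.

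Before the results, 9 miRNAs need to be set apart. The reads of miR-451, miR-486, miR-34c, miR-200a, miR-182, miR-142-5p, miR-363, miR-223 and miR-150 varied by 3.49% to 26.2% (coefficient of variation) over 7 libraries, namely CP_0 replicate 3, the 3 CP_14 and the 3 CC libraries, and were lower in the other 5. These 9 were picked by this pattern after the data were seen. The rule asked for a mean of 10 reads or more and a coefficient of variation below 35% over the 7. It also asked for reads in the other 5 below 60% of the lowest of the 7. In those 5 the reads of miR-200a reached 35 and 41 in CP_0, against 74 to 82 in the 7. miR-451, a miRNA of red blood cell precursors, had 6431, 6039 and 6109 reads in CP_14, 6933 in CP_0 replicate 3 and 6619, 6293 and 6119 in CC, but 8, 17 and 2 in CP_7 and 27 and 29 in the other CP_0 libraries. Over those 7 libraries its reads varied by 5.09% (coefficient of variation) while their depth varied by 57.9%, from 2791559 to 10256572 reads. miR-34c, known as a target of p53, had 223, 295 and 247 reads in CP_14, 273 in CP_0 replicate 3 and 249, 265 and 248 in CC, against 4, 1 and 0 in CP_7. The even number was thus found in cultured mesenchyme, induced pellets and chondrocytes alike, and why was not tested. Of the 9, 7 were tested and called higher at day 14, but other than miR-486 they passed the filter on low counts through CP_14 alone, so that their direction is not independent of the filter. They are among the largest changes listed below and are marked there as miRNAs with an even number of reads.

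**Figure D1:**
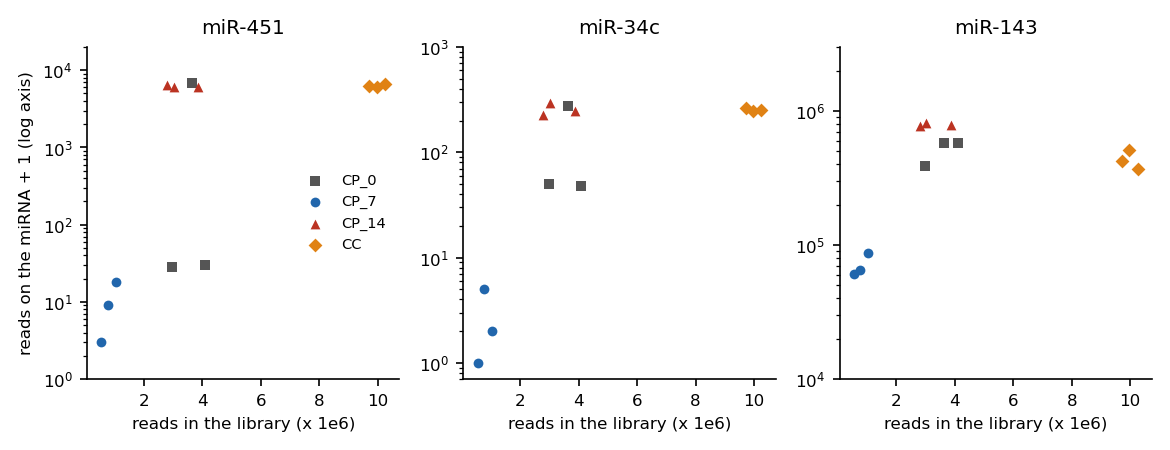
Reads on miR-451, miR-34c and miR-143 plus 1 (vertical, log axis) against the reads in the library (horizontal, in units of 1000000) for the 12 libraries, with 1 symbol per group and no error bars. For miR-451 and miR-34c, CP_0 replicate 3 and the CP_14 and CC libraries lie on 1 level whatever their depth, while for miR-143, shown for contrast, the groups lie at their own levels.

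The composition of the libraries changed between day 7 and day 14. miR-21-5p, a miRNA abundant in many cultured cells, took 24.3%, 23.9% and 21.4% of the reads in CP_7 and 45.0%, 45.7% and 53.9% in CP_14. The groups did not overlap, and the means were 23.2% ± 1.6 (SD, n = 3) and 48.2% ± 5.0 (SD, n = 3), with an exact two-sided permutation p of 0.1, the smallest that 3 against 3 libraries can give. The let-7 and miR-98 list went the other way, from 23.5% ± 1.7 to 7.20% ± 0.21 of the reads, and miR-148a from 13.8% to 3.53%. miR-143 took 9.36% of the reads at day 7 and 24.8% at day 14. Because a few miRNAs took so large a share, levels were compared after a TMM composition factor, which averaged 1.35 in CP_7 and 0.742 in CP_14. These are bulk libraries, in which fewer cells of a type and less RNA per cell cannot be told apart.

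With this factor the level of 130 of 246 miRNAs differed between the days (52.8%; limma on log2(normalized RPM + 1), Benjamini-Hochberg adjusted p below 0.05, two-sided). Of these, 60 (24.4%) were higher and 70 (28.5%) lower at day 14, and 76 (30.9%) had changed at least 2-fold, 39 up and 37 down. The CP_7 and CP_14 values did not overlap for 153 miRNAs (62.2%). Through CP_14 alone 14 miRNAs passed the filter, of which 10 were called higher, and through CP_7 alone 30, of which 16 were called lower. The split of directions depended on the factor. In the deposited RPM, with no factor, the median log2 fold change moved from -0.01 to -0.84, and 26 miRNAs (10.6%) were called higher and 138 (56.1%) lower. When the reads of miR-21-5p were left out of the totals, 43 were called higher and 91 lower, with a median of -0.29, and with upper-quartile factors 71 and 57, with a median of 0.13. All 70 falls were also called lower without a factor, but leaving it out moved nearly every value down, so it could hardly undo a fall. Of the 60 rises, 26 were then still called higher, 28 were not called and 6 were called lower, namely miR-16b, miR-185, miR-191, miR-193b, miR-25 and miR-660. In all 5 scalings, 26 rises, 5 of them miRNAs with an even number of reads, and 57 falls were called in the same direction. When 1 library was left out at a time, 45 of the 60 rises and 42 of the 70 falls were called in each of these fits that tested them. Without CP_14 replicate 3, the library that stood apart by chi-square, 45 miRNAs were higher and 58 lower.

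**Figure D2:**
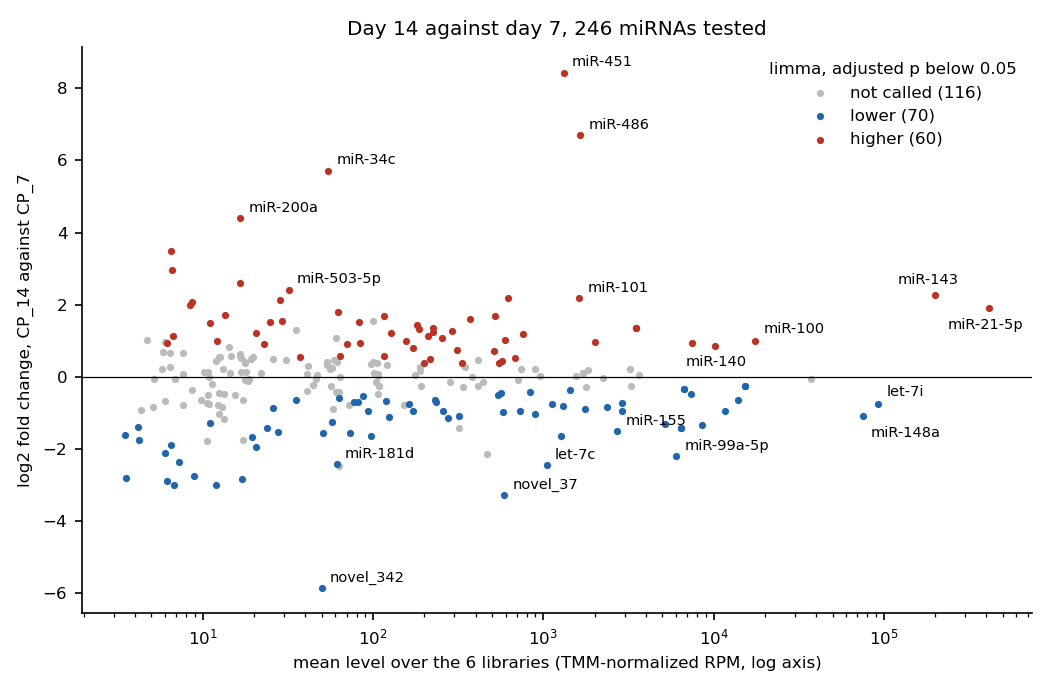
Log2 fold change of CP_14 against CP_7 (vertical, TMM) against the mean level over the 6 libraries in normalized RPM (horizontal, log axis) for the 246 miRNAs tested, coloured by the call of limma. Rises and falls are spread over the whole range of levels, miR-143 and miR-21-5p lie at the upper right, and miR-140 and miR-100 are among the rises that were not called with library size only.

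Among the most abundant miRNAs, miR-143, miR-21-5p and miR-100 rose while the abundant let-7 members and miR-148a fell. miR-143, known from smooth muscle and mesenchymal cells, stood at 64224, 65438 and 77325 normalized RPM in CP_7 and at 350601, 352776 and 295978 in CP_14. All CP_14 libraries were far above all CP_7 libraries, and the rise was 4.83-fold (log2 2.27 ± 0.11 SE, adjusted p = 8.11e-06, limma). miR-21-5p stood at 185815, 185083 and 147317 normalized RPM and then at 572899, 603781 and 787428. It rose 3.77-fold (log2 1.92 ± 0.15 SE, limma adjusted p = 6.18e-05), and both rises held in the deposited RPM, with log2 fold changes of 1.41 and 1.05. Side values on a scale common to all 12 libraries put miR-143 at 164088 ± 21582 before induction, 48793 ± 5668 at day 7, 248960 ± 28202 at day 14 and 71460 ± 7192 in chondrocytes (mean ± SD, n = 3), so day 7 had the lowest level of the 4 groups and day 14 the highest. For miR-21-5p the lowest mean was also that of CP_7, 122433 ± 20032, and the highest that of CC, 1253623 ± 127533, a value above 1000000 because it is divided by a factor below 1.

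miR-148a, known as a regulator of the DNA methyltransferase DNMT1, stood at 106027, 111634 and 89589 normalized RPM in CP_7 and at 44845, 47802 and 50493 in CP_14. It fell by 1.10 on the log2 scale (SE 0.10, limma adjusted p = 0.000129) with no overlap. miR-27b, among the most abundant too, was within the spread of its replicates, at 35002, 35675 and 44841 and then 37088, 38872 and 33653, and its log2 difference of -0.07 ± 0.12 SE was not called (limma adjusted p = 0.65). The reads of miR-199a-3p and miR-3604 were within 1% of each other in every library and are given as 1 value, which fell by 0.25 (SE 0.07, limma adjusted p = 0.0175). That call was lost in each of the 6 fits without 1 library, with values from -0.26 to -0.12, the last without CP_7 replicate 2, and -0.15 without CP_7 replicate 3.

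All 10 tested members of let-7 and miR-98 fell, with a median log2 fold change of -0.95 against -0.01 over all miRNAs tested. All 10 were also lower in the deposited RPM, but leaving out the factor moved nearly every value down, so it could hardly undo a fall. let-7e and let-7a-3p were not among the falls called in all 5 scalings. Without 1 library, 7 to 9 of the 10 were called lower. let-7c fell most. It stood at 2107, 1448 and 1760 normalized RPM in CP_7 and at 308, 295 and 356 in CP_14, 5.48-fold lower (log2 -2.45 ± 0.15 SE, limma adjusted p = 1.53e-05). let-7b, whose reads were shared with miR-3596, fell by 1.41 (SE 0.08, limma adjusted p = 1.14e-05), let-7g by 1.32 and let-7d by 1.14. let-7i, the most abundant member, stood at 123070, 129496 and 98864 and then at 62945, 66029 and 77601, and fell by 0.76 (SE 0.13, limma adjusted p = 0.00242). let-7a-5p fell by 0.96. The smallest falls were those of let-7f, -0.63, and let-7e, -0.42. The call of let-7f was lost without CP_7 replicate 1 (-0.50) and without CP_7 replicate 2 (-0.45), and that of let-7e likewise (-0.32 and -0.27). Members of this family differ from each other by few bases, and how the authors divided reads between near-identical sequences is not given in the sources used here, so the size of each member's change is uncertain.

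The fall of let-7 members was set beside that of the neighbours with which they share clusters. Of miR-99, miR-100 and miR-125, 5 members were tested, of which 2 rose and 2 fell, with a median of -0.04. Only 1 fell when replicate 1 or 2 of either day was left out. Over all miRNAs tested 24.4% were called higher and 28.5% lower. miR-99a-5p, which lies beside let-7c, stood at 10237, 9796 and 9683 normalized RPM in CP_7 and at 2096, 2200 and 2142 in CP_14. The values within each day were close together, and the miRNA fell 4.61-fold (log2 -2.21 ± 0.07 SE, limma adjusted p = 1.28e-06). miR-100, which differs from it by few bases, went from 11268, 11471 and 12425 to 22463, 23602 and 23916, a log2 change of 0.99 ± 0.07 SE (limma adjusted p = 3.61e-05) that came to 0.13 and was not called in the deposited RPM. miR-99b changed by 0.97 ± 0.07 SE (limma adjusted p = 4.09e-05) and by 0.11, not called, in the deposited RPM. How such neighbours moved against each other does not depend on a factor.

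A ratio of 2 miRNAs within 1 library needs no composition factor. Of 51 pairs of arms or cluster neighbours tested, 32 (62.7%) changed between the days (limma over the pairs, adjusted p below 0.05), among them 11 of 16 pairs of arms. Of the 32, 21 were called in each of the 8 alternatives. The ratio of miR-99a-5p to let-7c did not pass the test, at a log2 change of 0.25 with a 95% interval of -0.15 to 0.65 (limma adjusted p = 0.226). Ratios of pairs named from the other clusters of the same make-up did change. The reads are counted by mature name and cannot be assigned to 1 locus, so a changed ratio need not arise within 1 cluster. miR-100 to let-7a-5p rose by 1.95 on the log2 scale (SE 0.16, limma adjusted p = 0.000343), miR-99b to let-7e by 1.39 (SE 0.10, adjusted p = 0.00022 by limma) and miR-99b to miR-125a by 1.47 (SE 0.14, adjusted p = 0.000448 by limma).

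The largest change of a ratio was that of miR-143 to miR-145, which are cut from 1 primary transcript. miR-145, the miRNA the study followed up, stood at 1597, 1638 and 1013 normalized RPM in CP_7 and at 702, 752 and 1022 in CP_14. CP_14 replicate 3 lay above CP_7 replicate 3, so the groups overlapped. miR-145 was called lower, by 0.76 (SE 0.22, limma adjusted p = 0.0232), but the call was lost when replicate 1 or 2 of CP_7 was left out (-0.63 and -0.50), or replicate 1 or 2 of CP_14 (-0.66 and -0.71). The ratio of miR-143 to miR-145 rose by 3.04 on the log2 scale (SE 0.35, limma adjusted p = 0.00103), an 8.20-fold change that was called in every alternative. On the scale common to all libraries miR-145 was 631 ± 88.1 in uninduced RMCs, 1006 ± 282 at day 7, 615 ± 116 at day 14 and 716 ± 110 in chondrocytes (mean ± SD, n = 3), a range in which CP_7 had both the highest mean and the widest spread.

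Arms of 1 precursor changed against each other in both directions. miR-22-3p, whose reads were shared with miR-3600, rose from 1866, 2002 and 2073 to 4919, 5082 and 5151 normalized RPM (log2 1.35 ± 0.07 SE, limma adjusted p = 9.61e-06, and 0.49 in the deposited RPM). The 5p arm of the same precursor fell from 263, 276 and 311 to 185, 184 and 176 (log2 -0.63 ± 0.11 SE, limma adjusted p = 0.00283). The ratio of miR-22-5p to miR-22-3p was thus 3.95-fold lower at day 14 (log2 -1.98 ± 0.09 SE, limma adjusted p = 6.83e-05). miR-27a-5p to miR-27a-3p rose 3.49-fold, miR-423-5p to miR-423-3p 2.24-fold and miR-7857-5p to miR-7857-3p 5.21-fold, while miR-23b-5p to miR-23b-3p fell 6.61-fold and miR-331-5p to miR-331-3p 3.22-fold. These 5 ratios were called in every alternative, although the 5p arm of miR-23b had only 50 reads over the 3 CP_7 libraries and 11 over the 3 CP_14 libraries. That arm passed the filter through CP_7 alone, so the direction of its ratio is not independent of the filter. Over the alternatives the log2 change of that ratio ran from -2.87 to -1.44. The ratio of miR-21-5p to miR-21-3p rose by 1.31 (SE 0.32, limma adjusted p = 0.0152), and that call was lost without CP_7 replicate 2, CP_14 replicate 2 or CP_14 replicate 3.

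**Figure D3:**
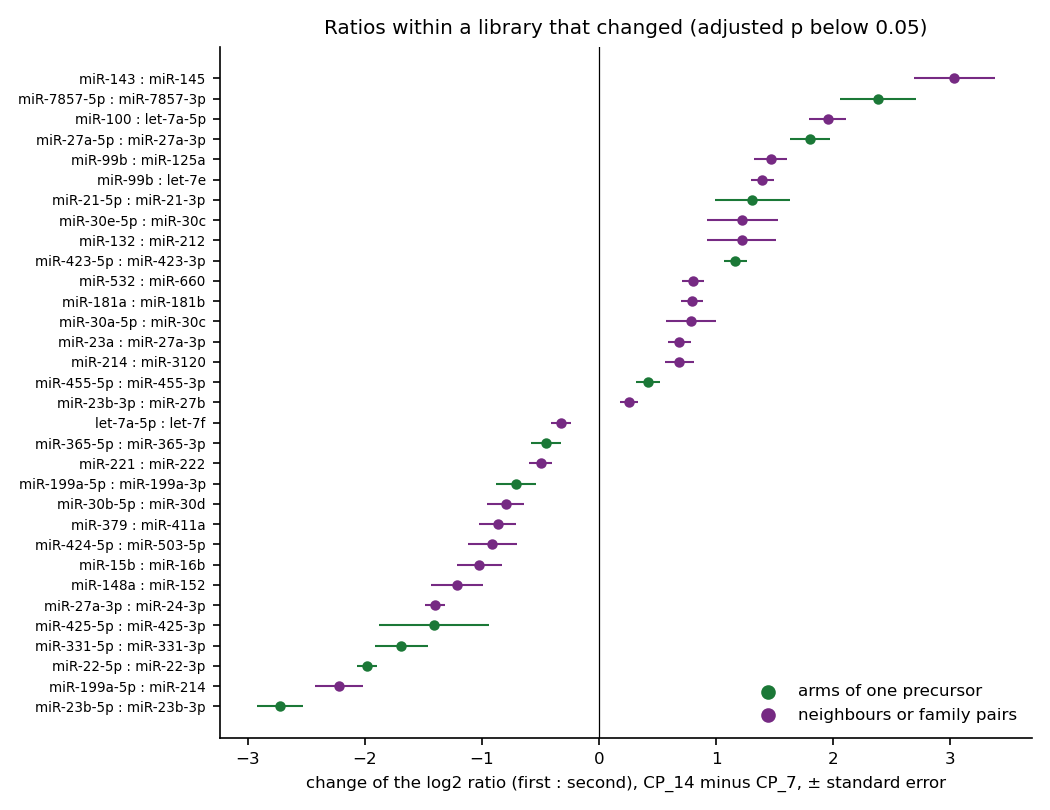
Change of the log2 ratio between the members of a pair within a library, CP_14 minus CP_7, with the standard error of limma as a bar, for the 32 of 51 pairs that were called. Arms of 1 precursor (green) and neighbours or family members (purple) are found on both sides of 0, from 3.04 for miR-143 to miR-145 down to -2.72 for miR-23b-5p to miR-23b-3p. miR-23b-5p passed the filter through CP_7 alone.

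The cartilage miRNAs did not move as a group. miR-140 stood at 7189, 7000 and 7452 normalized RPM in CP_7 and at 12498, 13344 and 13637 in CP_14, with no overlap, and was called 1.82-fold higher (log2 0.87 ± 0.07 SE, limma adjusted p = 6.18e-05). In the deposited RPM the same miRNA took 0.976% of the reads in CP_7 and 0.975% in CP_14, a log2 difference of 0.00, so its call rests on the factor. miR-455-3p fell from 103, 109 and 92.1 to 52.9, 68.6 and 64.3 (log2 -0.71 ± 0.17 SE, limma adjusted p = 0.01), a call that was lost without CP_7 replicate 2 (-0.52). miR-455-5p, at 383, 397 and 331 and then 277, 303 and 338, overlapped and was not called (log2 -0.28, limma adjusted p = 0.097). On the common scale miR-140 was 10756 ± 417 in uninduced RMCs, 5100 ± 312 at day 7, 9818 ± 199 at day 14 and 17000 ± 725 in chondrocytes (mean ± SD, n = 3).

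The lists of miR-221, miR-181 and miR-29 held members that fell and none that rose, where 28.5% of all miRNAs tested were called lower. Both members of the miR-221 and miR-222 list fell. miR-221, known for lowering the cell cycle inhibitor p27, stood at 7467, 7730 and 6823 normalized RPM and then at 2927, 2882 and 3121, 2.46-fold lower (log2 -1.30 ± 0.08 SE, limma adjusted p = 1.37e-05), and miR-222 fell by 0.80. In the miR-181 list 2 of 3 tested members fell. miR-181d went from 124, 103 and 85.7 to 19.2, 19.7 and 16.3 (log2 -2.43 ± 0.21 SE, limma adjusted p = 8.27e-05) and miR-181b fell by 1.04. In the miR-29 list 2 of 4 fell, so nothing particular to so short a list is read from its count. miR-29a, whose known targets include fibrillar collagens, went from 2987, 3048 and 3082 to 1657, 1650 and 1808 (log2 -0.83 ± 0.07 SE, limma adjusted p = 9.46e-05). miR-29b fell by 0.68, and was not called without CP_7 replicate 2 (-0.51) or without CP_14 replicate 2 (-0.68). The medians of the miR-181 and miR-29 lists were -1.04 and -0.66.

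The miR-30 and miR-26 lists also moved only downward among the called members, where 28.5% of all miRNAs tested were called lower. Of 6 miR-30 members 3 fell, with a median of -0.52, and 2 fell without CP_7 replicate 2 (median -0.25) or CP_7 replicate 3 (-0.56). Among them, miR-30b-5p went from 472, 452 and 390 normalized RPM to 184, 198 and 235 (log2 -1.09 ± 0.13 SE, limma adjusted p = 0.00045) and miR-30f fell by 1.41. All 3 names of the miR-26 list fell, with a median of -0.34, but miR-26a and miR-26c shared their reads, and none was called without CP_7 replicate 1 (median -0.30) or CP_7 replicate 2 (-0.16) and only 1 without CP_7 replicate 3, CP_14 replicate 1 or CP_14 replicate 2. Of the 5 tested muscle miRNAs, 3 fell and 2 were not called, and without CP_14 replicate 2 only 1 fell. Of the 3, miR-499 passed the filter through CP_7 alone. The 2 not called passed it through CP_14 alone, so nothing is read from the count. miR-1 was at 3343, 4814 and 2856 and then at 2040, 2122 and 2313 (log2 -0.73 ± 0.18 SE, limma adjusted p = 0.0134), a call lost without CP_14 replicate 1 (-0.69) or CP_14 replicate 2 (-0.72). Without CP_7 replicate 2, its highest library, it was called at -0.38. miR-133a fell by 0.95, and was not called without CP_7 replicate 2 (-0.60) or CP_14 replicate 2 (-0.85).

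Members went both ways in the miR-199 and miR-214 list, where 2 of 6 tested members rose and 4 fell. The number that fell was 2 when replicate 3 of CP_14 or replicate 2 or 3 of CP_7 was left out. Over all miRNAs tested 24.4% were called higher and 28.5% lower. miR-214 and a copy of miR-199a lie in a long transcript antisense to a dynamin gene, and miR-3120 is cut from the opposite strand of miR-214. miR-199a-5p fell from 3914, 4004 and 3485 normalized RPM to 1705, 1877 and 2324 (log2 -0.96 ± 0.13 SE, limma adjusted p = 0.000661) and miR-199b fell by 0.89. miR-199c fell by 0.69, and was not called when replicate 2 or 3 of CP_7 (-0.61 and -0.44) or replicate 3 of CP_14 (-0.62) was left out. miR-214 went from 164, 154 and 197 to 420, 409 and 402, a log2 change of 1.26 ± 0.12 SE (limma adjusted p = 0.000153) that was 0.40 and not called in the deposited RPM. The ratio of miR-199a-5p to miR-214 fell 4.66-fold (log2 -2.22 ± 0.21 SE, limma adjusted p = 0.000433) and that of miR-214 to miR-3120 rose by 0.69. miR-3120 itself changed by 0.57 with the factor and by -0.29 without it.

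In the miR-23, miR-24 and miR-27 list 2 of 8 tested members rose and 3 fell, with a median of 0.06. Over all miRNAs tested 24.4% were called higher and 28.5% lower, so nothing is read from the count. Of the 3 that fell, miR-23b-5p passed the filter through CP_7 alone. miR-24-3p went from 4807, 4644 and 5962 to 10025, 10171 and 9140 (log2 0.94 ± 0.11 SE, limma adjusted p = 0.000378), but by 0.07, not called, in the deposited RPM. Against its cluster neighbour miR-27a-3p the change needs no factor, and miR-27a-3p to miR-24-3p fell by 1.40 (SE 0.09, limma adjusted p = 0.000194). In the miR-148 and miR-152 list miR-148a fell while miR-148d rose from 173, 154 and 225 to 577, 612 and 475 (log2 1.60 ± 0.17 SE, limma adjusted p = 0.000245, and 0.74 in the deposited RPM). miR-148b was called higher by 0.71 with the factor and came to -0.16 without it.

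All 5 tested members of the X-linked cluster of miR-424, miR-450 and miR-503 rose with the factor, with a median of 1.24, and 2 of them were also called higher in the deposited RPM. Without CP_14 replicate 2 or 3 the number was 3. miR-503-5p, known for lowering cell cycle genes, stood at 10.9, 9.74 and 7.67 normalized RPM in CP_7 and at 54.7, 59.8 and 48.8 in CP_14 (log2 2.42 ± 0.23 SE, limma adjusted p = 0.000129, and 1.60 without the factor). miR-450a went from 142, 121 and 137 to 319, 313 and 314 (log2 1.24 ± 0.11 SE, limma adjusted p = 0.00011, and 0.38 without it). The other X-linked list, with miR-188, miR-362, miR-500, miR-502, miR-532 and miR-660, had 2 risers among 5 tested, beside 24.4% called higher over all miRNAs. Of the 2, miR-660 was called lower in the deposited RPM. Without CP_14 replicate 2 or 3 this list had only 1 riser. miR-532 rose from 446, 478 and 476 to 1002, 1057 and 1109 (log2 1.18 ± 0.09 SE, limma adjusted p = 3.61e-05, and 0.31 without it). In the miR-17 to miR-92 clusters, known for their part in proliferation, 3 of 10 tested members rose and none fell with the factor, near the 24.4% called higher over all miRNAs tested, while in the deposited RPM 1 was called higher and 6 lower. miR-363, 1 of the 3 and the riser in the deposited RPM, had an even number of reads and passed the filter through CP_14 alone. With the factor but without CP_14 replicate 1 or 2, the number of these clusters' members that rose was 1. Of 9 tested members of the miR-15 and miR-16 list, 4 rose and 1 fell with the factor, and 1 rose and 5 fell without it. All of the 4 but miR-16b are also members of the X-linked cluster of miR-424, miR-450 and miR-503 given above. miR-16b was called lower without the factor. With the factor, 2 rose without CP_14 replicate 2 or 3, and none fell without CP_14 replicate 1 or 3 or CP_7 replicate 2 or 3.

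Beyond the families, miR-184 and miR-101 were among the 10 largest rises by the naming rule (called, at least 50 mean reads in a group, no overlap), with replicates close together on both days. miR-184, best known from the cornea and lens, stood at 203, 237 and 226 normalized RPM in CP_7 and at 1015, 1018 and 1025 in CP_14 (log2 2.20 ± 0.10 SE, limma adjusted p = 4.83e-06). On the common scale it was 123 ± 4.33 in CP_0 and 18.1 ± 1.17 in CC (mean ± SD, n = 3), both below CP_14 at 761 ± 16.1. miR-101, known for lowering the histone methyltransferase EZH2, went from 545, 590 and 616 to 2633, 2703 and 2652 (log2 2.19 ± 0.08 SE, limma adjusted p = 2.49e-06). Its level on the common scale was 1785 ± 47.0 in uninduced RMCs, 414 ± 47.4 at day 7, 1988 ± 40.9 at day 14 and 2236 ± 70.1 in chondrocytes, so that CP_7 stood far below the other groups. Both rises held in the deposited RPM, at 1.33 and 1.32. miR-192 rose by 1.69 (0.82 without the factor).

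The remaining members of the 10 largest rises were 6 miRNAs with an even number of reads. miR-451 stood at 7.93, 12.7 and 2.56 normalized RPM in CP_7 and at 2934, 2637 and 2309 in CP_14 (log2 8.43 ± 0.45 SE, limma adjusted p = 9.61e-06), a ratio of 302 by summed reads with a counting interval of 207 to 458. miR-486, found in red blood cells and muscle, rose by 6.69 (5.90 without CP_7 replicate 1 and 7.67 without CP_7 replicate 2), miR-34c by 5.71 and miR-200a, a miRNA of epithelia, by 4.40. miR-142-5p, of blood cells, rose by 2.59 and miR-182 by 2.13. miR-142-5p was not called without CP_14 replicate 1 (2.55), 2 (2.56) or 3 (2.77), and came to 1.51 without CP_7 replicate 1 and 3.29 without CP_7 replicate 2. miR-182 was called in only 1 of the 6 fits that left out a library, that without CP_7 replicate 3 (3.01), with values from 1.60 upward. The blood list summed to 17.8 to 126 normalized RPM in CP_7 and to 5124 to 6622 in CP_14, with 3 of 7 markers tested, and the epithelial list, with 2 of 5 markers tested, to 2.97 to 11.5 and 48.4 to 56.6. The tested markers, other than miR-486, passed the filter only through CP_14, where they are high, so no count of their calls is given. Of the blood markers 2 were at 0 in all CP_7 libraries and 1 in all CP_14 libraries. Both sums are made up largely of the miRNAs with an even number of reads, and the part of other cells in them was not tested.

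**Figure D4:**
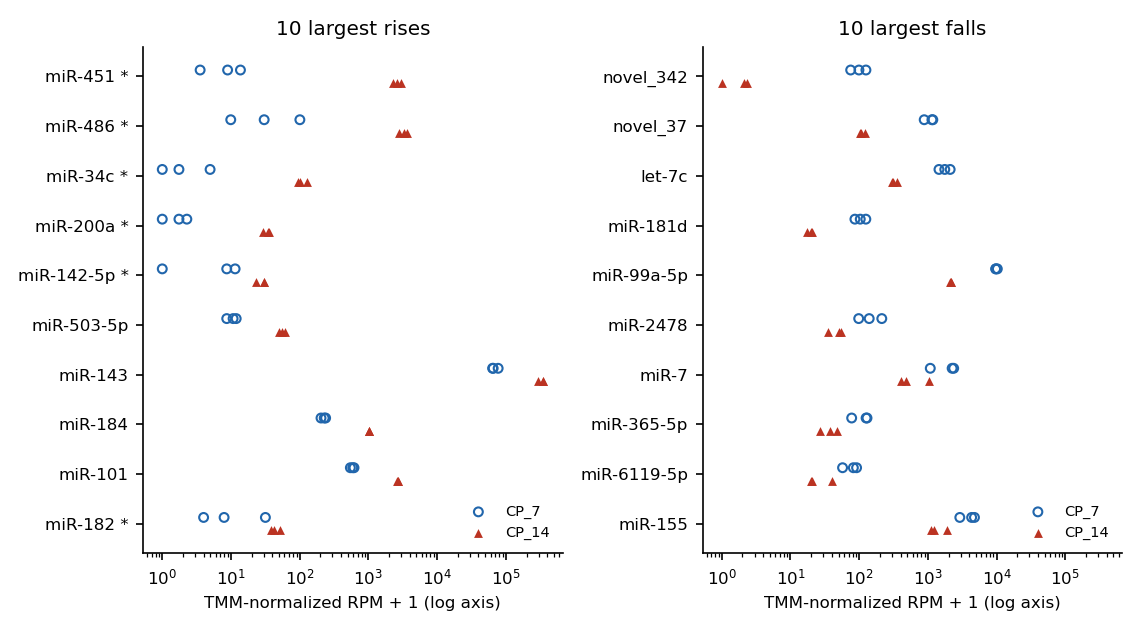
Level of each library in normalized RPM plus 1 (log axis) for the 10 largest rises and the 10 largest falls by the naming rule, with CP_7 as open circles and CP_14 as filled triangles, 3 libraries each. An asterisk marks the 6 miRNAs with an even number of reads, and in every row the CP_7 and CP_14 symbols do not overlap.

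The largest falls were those of 2 miRNAs that the authors predicted and numbered with the prefix novel_. novel_342 stood at 98.2, 124 and 74.2 normalized RPM in CP_7 and at 0, 1.31 and 1.13 in CP_14, from 323 reads in CP_7 and 6 in CP_14, a ratio of 123 with a counting interval of 55.8 to 337. Its fitted change was -5.84 ± 0.40 SE (limma adjusted p = 2.89e-05). It passed the filter through CP_7 alone, so the direction of this change is not independent of the filter. novel_37 fell from 1143, 1178 and 882 to 101, 107 and 121 (log2 -3.27 ± 0.14 SE, limma adjusted p = 4.83e-06). Both were low in uninduced cells and chondrocytes too, at 0.242 and 47.6 in CP_0 and 0.0573 and 29.2 in CC on the common scale, where CP_7 stood at 70.6 and 758. Of the 70 names with this prefix 8 were tested, of which 1 rose and 3 fell, beside 24.4% and 28.5% of all miRNAs tested. The riser passed the filter through CP_14 alone and 2 of the 3 that fell, novel_342 and novel_272, through CP_7 alone. No name rose when any 1 CP_14 library was left out, 2 rose without CP_7 replicate 3 and 5 fell without CP_7 replicate 1, when more were tested. Together the names took 0.173% of the reads at day 7 and 0.0181% at day 14.

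miR-155, known from activated immune cells, fell from 4330, 4759 and 2913 normalized RPM to 1109, 1245 and 1925 (log2 -1.50 ± 0.25 SE, limma adjusted p = 0.00229). In the same inflammation list miR-147 rose from 40.7, 53.2 and 72.9 to 186, 187 and 159 (log2 1.69 ± 0.23 SE, limma adjusted p = 0.000687, and 0.84 without the factor). miR-7, cut from an intron of HNRNPK, was at 2372, 2252 and 1082 and then at 401, 475 and 1027. Replicate 3 of each day lay close together, and the fall of 1.63 (SE 0.42, limma adjusted p = 0.0148) was not called without CP_7 replicate 2 (-1.32), CP_14 replicate 1 (-1.36) or CP_14 replicate 2 (-1.48). miR-365-5p fell by 1.57, miR-6119-5p by 1.56 and miR-2478, a name given in cattle, by 1.63. miR-1246 and miR-1248, whose reads are known to come from other small RNAs, changed by 1.03 (0.17 and not called without the factor) and by -1.67. miR-1248 passed the filter through CP_7 alone, so the direction of its change is not independent of the filter.

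In the imprinted DLK1-DIO3 cluster 42 of 47 listed members had a read but only 14 could be tested, of which 2 rose and 6 fell, with a median of -1.49. All 6 that fell were among the 8 members that passed the filter through CP_7 alone, so neither their count nor the median supports a fall of the cluster. The 2 that rose, miR-411a and miR-379, lie close together in the cluster. miR-411a went from 22.8, 28.5 and 30.7 to 89.4, 105 and 97.1 (3.49-fold, limma adjusted p = 0.000202, and log2 0.96 without the factor), and miR-379 rose by 0.94 on the log2 scale (0.09 and not called without it). The reads of the cluster took 0.185% of CP_7 replicate 1 against 0.0370% and 0.0467% of the other CP_7 libraries and 0.0237% to 0.0285% of the CP_14 libraries, so 1 library carries much of its day 7 level. Without it 18 members were tested, 2 rose and 6 fell, and the median was -0.61. The falls of the cluster numbered only 1 without CP_14 replicate 1 or 2, 2 without CP_14 replicate 3 and 9 without CP_7 replicate 3. The hypoxia miRNA miR-210 was at 104, 118 and 98.5 and then at 140, 131 and 132, a log2 change of 0.33 that was not called (limma adjusted p = 0.0701) and was -0.53 and called lower in the deposited RPM. Without CP_7 replicate 2 it was 0.54 and called higher (limma adjusted p = 0.0257). Of the ruminant miR-2284 and miR-2285 list, 57 of 67 members had a read and 11 were tested. Of these, 2 rose and 1 fell, beside 24.4% called higher and 28.5% lower over all miRNAs tested. There was 1 riser when replicate 2 or 3 of CP_14 was left out and none lower when replicate 2 or 3 of CP_7 was.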

How the data were processed

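Total RNA was made into small RNA libraries (NEBNext kit) and sequenced on an Illumina instrument. According to the submitters' processing notes CASAVA, bcl2fastq 1.8.4 and Bowtie were used. Adapter trimming, database version and counting rule were not stated in those sources. The authors deposited RPM (the reads of each miRNA scaled to 1000000 reads over the list), in columns headed tpm that sum to 1000000. No column was left unused. Whole reads were recovered from the smallest steps of each library.

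miRNAs were kept by filterByExpr (minimum count 10, total 15) on those reads, TMM factors were computed, and log2(normalized RPM + 1) was fitted with limma 3.58.1 in R 4.3.3 on the 6 libraries, with Benjamini-Hochberg adjustment over 246 miRNAs. This scale understates changes of low miRNAs. Ratios within a library were fitted over 51 pairs. Reads were also tested with edgeR 4.0.16 and DESeq2 1.42.0. A minimum fold of 2 beside the adjusted p was an alternative. Counting intervals and floors (95%, 3 reads) cover counting error only.

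The miRNAs named were the 10 largest rises and falls with at least 50 mean reads and groups that do not overlap, the 10 most abundant, miR-145, and members of the lists with at least 50 mean reads. A few others (miR-22-3p, miR-22-5p, miR-192) were picked with their values already seen. The comparison and the lists were chosen with earlier results of these data known. Scripts were tested on simulated data.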

Additional observations from a re-analysis of the deposited data

How the results depend on the processing

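The calls were 89 to 137 in the fits without 1 library (41 to 70 higher, 48 to 68 lower), and 32 ratios became 23 to 33. With library size only, 26 were higher and 138 lower, and with the 2-fold minimum 76 were called, 39 higher and 37 lower. In the other settings (RLE or upper-quartile factors, totals without miR-21-5p, edgeR, DESeq2, no filter, other pseudocounts, all 12 libraries, shared names collapsed) 126 to 156 were called. Leaving out the tested miRNAs with an even number of reads, an alternative chosen after seeing the data, gave 112 of 239 (54 higher, 58 lower). With library size only the direction turned for miR-21-3p (-0.26), miR-3120 (-0.29), miR-148b (-0.16), miR-16b (-0.42) and miR-210 (-0.53), since no factor was then applied. miR-27b, not called, went to 0.071 with upper-quartile factors, 0.012 in edgeR, 0.011 with all 12 libraries and 0.027 without the miRNAs with an even number of reads, and ranged from -0.11 to 0.11 without 1 library. The difference in miRNAs detected went from 50 to -29.6 at equal depth. The difference in the share of miR-21-5p was 22.1 to 26.6 percentage points without 1 library. Of 1419 alternative values of 75 named miRNAs, 1312 kept their direction and call, 84 lost the call, 12 gained it and 11 changed direction.

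Replicate numbers did not pair the samples: deviations of same-numbered libraries correlated at 0.08, 0.11 and -0.13, and not every library correlated best with its own number. With a replicate block 100 miRNAs (46 higher, 54 lower) and 25 ratios were called. Depth limits the low miRNAs of day 7. Over the 6 libraries of both days, 254 miRNAs with a read were not tested.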

Other observations

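In CP_7, 10 miRNAs with at least 50 reads in a library stood at 4 or more times the next library in 1 library alone, 7 of them in replicate 1 and 3 in replicate 3. Those of replicate 1 include miRNAs of brain and, from the muscle list, miR-206 alone. The muscle list as a whole took 0.497% of the reads of replicate 1, against 0.670% in replicate 2 and 0.458% in replicate 3. miR-9-5p, of neural tissue, was at 1418 normalized RPM in replicate 1 and at 97.2 and 83.1 in the others, and at 202 to 251 in CP_14. miR-128 was at 1237 against 181 for the next library, miR-129 at 188 against 29.4, miR-139 at 290 against 47.2, and miR-206, of skeletal muscle, at 261 against 5.24 and 0. miR-381 and miR-543 of the imprinted DLK1-DIO3 cluster were at 75.4 and 51.6 against 12.8 for the next library in both cases.

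Those of replicate 3 were miR-126-3p, known from endothelium, at 2120 against 249 and 142, with 82.8 to 104 in CP_14, and the Hox-embedded miR-10b and miR-10a, at 238 against 49.4 and 138 against 20.8. The fold change of miR-126-3p, -2.14, did not pass the test (limma adjusted p = 0.0839), and passed it at -0.91 without CP_7 replicate 3 (limma adjusted p = 0.0385) and at -2.89 without CP_7 replicate 1 (limma adjusted p = 0.0207). Without CP_7 replicate 1, 3 of the 5 neural miRNAs tested were called higher and 1 lower, where with all libraries none was called higher and 1 lower. That fit called 67 of 281 miRNAs higher. miR-9-5p, miR-128 and miR-129 of this list were picked for their peak in replicate 1, so leaving it out moves them upward and nothing is read from the count. Of the 10 miRNAs high in 1 CP_7 library, only miR-543 was called (-2.99, limma adjusted p = 0.0158). It passed the filter through CP_7 alone, so its direction is not independent of the filter. It was -2.07 without CP_7 replicate 1 and -3.61 without CP_7 replicate 2, and the call was lost without CP_14 replicate 1 (-2.99) or 2 (-2.78). In CP_14, miR-206 was again high in 1 library, replicate 1, at 67.5 against 16.2. These miRNAs were chosen after their values were seen, and what sets those libraries apart was not tested.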
